A study of Mus musculus with 4 samples.

Results

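Ly6d and 9 genes known as markers of fetal hepatocytes or of bile duct and progenitor cells were followed across 4 mouse liver arrays. The 10 genes were named by symbol: Ly6d, the fetal liver genes Afp, H19 and Dlk1, and the biliary and progenitor markers Sox9, Krt19, Krt7, Epcam, Spp1 and Cd24a. A gene counted as measured when a probe set carried that 1 symbol, and the brightest probe set by the mean of the 4 arrays was taken. This gave 8 measured genes out of 10 listed, among 19505 named genes in all. H19 and Spp1 had no named probe set and were not analysed here. Each of the 8 had 1 probe set, so brightness decided none of them. Ly6d was selected on its difference between 30 h and 0 h on these arrays, and the list around it was drawn up with all 4 levels in view, so every value below is a description.

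The 4 groups were Mcu knockdown liver 30 h after hepatectomy (KD 30 h), Mcu knockdown liver at 0 h (KD 0 h), control liver 30 h after hepatectomy (WT 30 h) and control liver at 0 h (WT 0 h). All mice were males on the C57BL6J background, and the protocol gives floxed Mcu alleles (MCUloxp/loxp) and an age of 10 to 12 weeks at injection. Knockdown mice received AAV8-TBG-Cre, an adeno-associated virus in which the hepatocyte-directed TBG promoter drives Cre recombinase, and control littermates received the empty AAV8-TBG-Null, so bile duct cells, endothelium and blood cells were not the target of Cre in either genotype. The genotype label of the controls reads Wild type, and that of the knockdown arrays gives floxed alleles of a gene other than Mcu, so the groups follow the titles (KD and WT) and the gene follows the protocol. A 70% partial hepatectomy followed 5 weeks after injection, and pools of 4 animals per genotype are stated, so each group was 1 pooled array. No error, SD or p-value can be given for any difference between these groups.

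Fetal hepatocytes make Afp and express the imprinted genes H19 and Dlk1, and these genes are shut down after birth. Bile duct cells carry keratins 7 and 19, Epcam and the transcription factor Sox9, and the same genes mark the progenitor cells of the ductular reaction, which appears when hepatocytes cannot divide. After partial hepatectomy of a healthy mouse liver the mature hepatocytes themselves usually re-enter the cell cycle. Ly6d, a small membrane protein of the Ly6 family held by a lipid anchor, is best known from B-lineage progenitors and squamous epithelium.

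Ly6d was far higher at 30 h in both genotypes, and none of the other 7 measured genes reached a 2-fold difference in any comparison. Levels are log2 RMA expression of a probe set, and a difference of 1 on this scale is 2-fold. The targeted gene, Mcu, which encodes the pore of the mitochondrial calcium uniporter, read 2.63 in KD 30 h and 2.83 in KD 0 h, against 4.30 in WT 30 h and 4.77 in WT 0 h, the direction of the titles. The array descriptions speak of ethanol-fed liver, and that of KD 30 h gives 1 h after surgery, which no title or time label repeats. Array medians lay between 3.75 and 3.84. The hepatocyte markers had list medians of 11.41 in KD 30 h, 11.62 in KD 0 h, 11.36 in WT 30 h and 11.66 in WT 0 h, and 0 of 10 differed by 2-fold in any of the 5 differences.

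**Figure D1:**
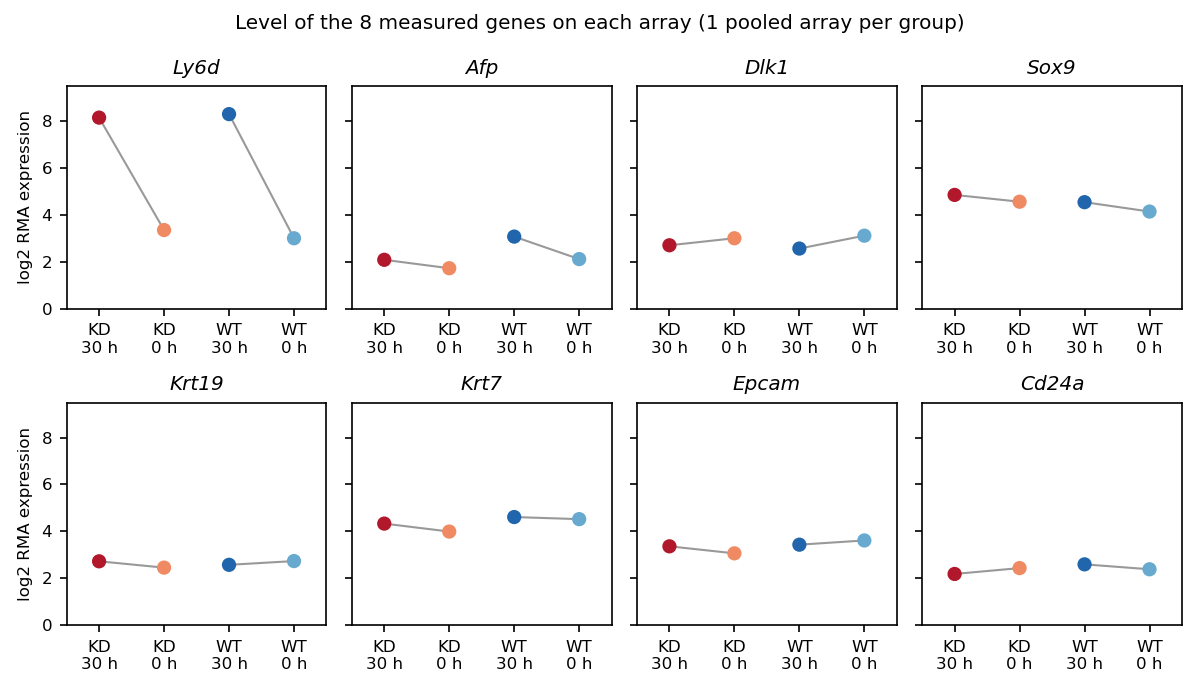
Log2 RMA expression (vertical axis) of the 8 measured genes on each of the 4 arrays, with KD in red shades, WT in blue shades and a grey line joining the 30 h and 0 h arrays of a genotype. Ly6d is at 8.15 and 8.30 on the 30 h arrays and at 3.35 and 3.0 on the 0 h arrays, while no other gene spans more than 1.35.

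Ly6d read 8.15 in KD 30 h and 3.35 in KD 0 h, against 8.30 in WT 30 h and 3.0 in WT 0 h. Both 30 h arrays were high and both 0 h arrays were low. The difference between 30 h and 0 h was 4.80 in the knockdown (27.9-fold higher, rank 5 of 19505 genes from the highest) and 5.30 in control (39.4-fold higher, rank 2). The genotypes differed little beside this. Knockdown minus control was 0.35 at 0 h and -0.15 at 30 h, and the knockdown response minus the control response was -0.50. The Ly6d value lay at percentiles 96.9 and 96.8 of the KD 30 h and WT 30 h arrays, and at 40.5 and 32.5 of the KD 0 h and WT 0 h arrays. The 0 h values are therefore in the range of dim probe sets, where RMA folds tend to be understated.

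Among all named genes, 2.72% were higher and 2.01% lower by 2-fold or more at 30 h in the knockdown, and 4.19% were higher and 2.22% lower in control. These shares are the background for the 30 h counts of every list below. Ly6d was the 1 measured gene of the list past 2-fold in each response, and it belonged to the 182 genes (0.933%) past 2-fold above 0 in both genotypes. The central 95% of all named genes lay between -0.94 and 1.02 in the knockdown response and between -0.96 and 1.21 in the control response. All 7 other members lay inside both ranges. The median over the 8 members was 0.30 in the knockdown and 0.15 in control, against 0.01 and -0.01 over all named genes.

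**Figure D2:**
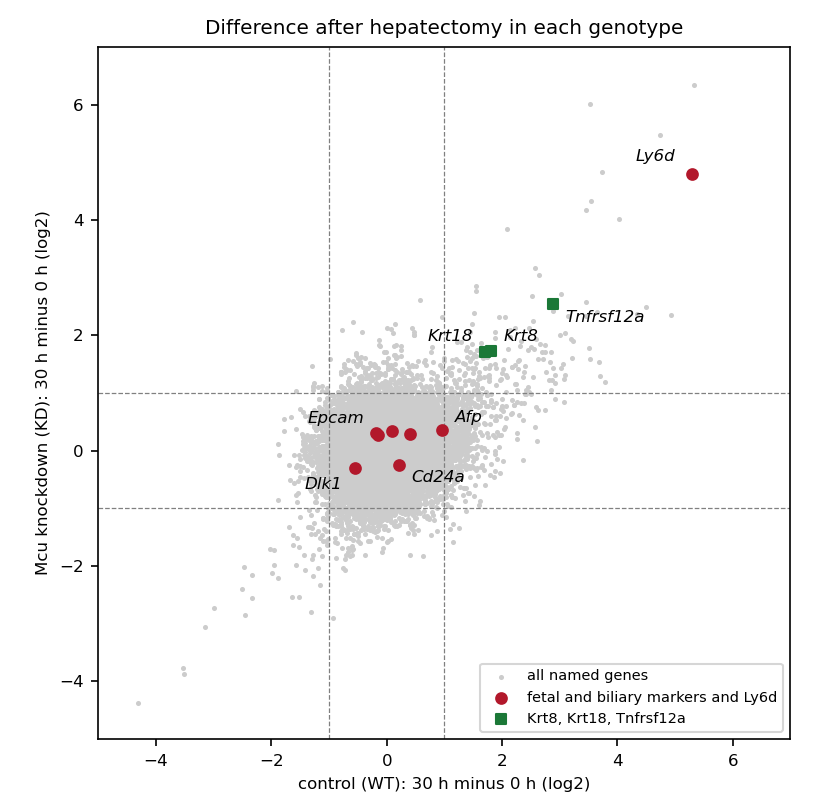
Log2 difference between 30 h and 0 h in knockdown liver (vertical axis) against that in control liver (horizontal axis) for 19505 named genes (grey), the 8 measured genes (red circles) and Krt8, Krt18 and Tnfrsf12a (green squares), with dashed lines at 2-fold. Ly6d stands at 4.80 and 5.30, the green squares lie past 2-fold on both axes, and the 7 other red circles lie inside the dashed square.

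The 5 genes with the pattern nearest to that of Ly6d were sought among genes at or above the median brightness, by the Euclidean distance over the 3 log2 differences from WT 0 h (KD 30 h, KD 0 h and WT 30 h). They were Saa2 (distance 0.99), Lcn2 (1.38), Saa1 (1.78), Mcm6 (1.85) and Mt1 (2.14). These distances were larger than those of the other members, whose nearest genes lay at 0.01 (Krt7) to 0.09 (Afp). Those members had small differences, as most genes do, so the comparison cannot show how close the Ly6d neighbours are. The distance uses the 30 h values on which Ly6d was selected, so its nearest genes are other large responders by construction. Saa1 and Saa2 encode serum amyloid A proteins of the acute phase and are close copies, so their probe sets may share signal. Lcn2 encodes lipocalin 2, which binds iron-carrying siderophores, Mt1 a metallothionein, and Mcm6 a subunit of the replicative helicase. Saa2 differed between 30 h and 0 h by 5.48 in the knockdown and 4.74 in control, and Lcn2 by 6.34 and 5.33. Mcm6 parted from Ly6d in the genotypes, with a response of 2.35 in the knockdown and 4.93 in control. Mt1 had 4.83 in the knockdown and 3.73 in control. The order of distances carries no error, since each rests on the same 4 arrays.

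**Figure D3:**
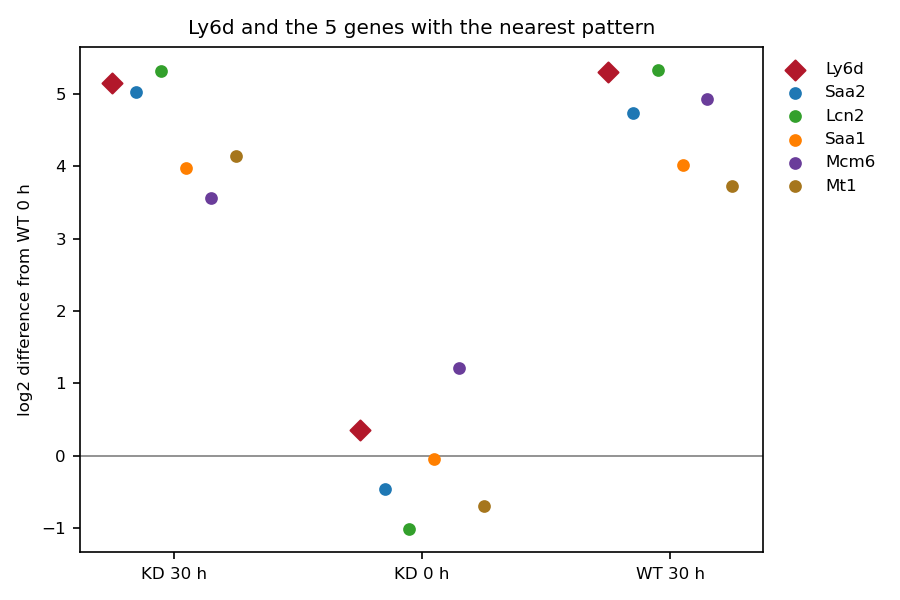
Log2 difference from WT 0 h (vertical axis) of Ly6d (red diamonds) and its 5 nearest genes (circles) in KD 30 h, KD 0 h and WT 30 h. All 6 genes are high in both 30 h groups, and in KD 0 h Ly6d is at 0.35, with Mcm6 at 1.21 above it and the other 4 genes below 0.

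Other cells that express Ly6d were followed by their own markers. The 13 measured of 15 B-lineage markers had a summed linear signal of 146 in KD 30 h and 157 in KD 0 h, against 119 in WT 30 h and 143 in WT 0 h. None of the 13 was 2-fold higher at 30 h in either genotype, and 1 was 2-fold lower in each, Cr2, the complement receptor of mature B cells (-1.18 in the knockdown, -1.04 in control). Over all named genes, 2.72% were higher in the knockdown and 4.19% in control, so a count of 0 among 13 is near that share. The B-cell receptor chain Cd79a read 3.68 in KD 30 h and 4.04 in KD 0 h, against 2.93 in WT 30 h and 3.28 in WT 0 h. It was thus lower at 30 h in both genotypes, by less than 2-fold. The list was mixed, with 7 genes above 0 and 6 below in the knockdown response (median 0.02), and 5 above and 8 below in control (median -0.24). The surrogate light chain partner Vpreb3 differed by -0.71 in the knockdown and 0.15 in control, and Ms4a1, which encodes CD20, by 0.11 and 0.90.

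The 11 squamous epithelial markers had a summed signal of 108 in KD 30 h and 98.1 in KD 0 h, against 88.6 in WT 30 h and 111 in WT 0 h. None was 2-fold different at 30 h in either genotype, the keratins Krt10 (0.26 in the knockdown, -0.74 in control) and Krt15 (0.41 and -0.62) among them. Of the 7 measured of 8 plasmacytoid dendritic cell markers, 1 was 2-fold higher in the knockdown, Klk1 (1.09, against 0.22 in control). None was 2-fold higher in control. Over all named genes, 4.73% were past 2-fold in either direction in the knockdown and 6.41% in control. Counts of 0 in lists this short are near those shares. Their summed signal was 144 in KD 30 h and 132 in KD 0 h, against 131 in WT 30 h and 152 in WT 0 h. RMA values have no true zero, so these sums include background. In whole liver, fewer cells of a type and less RNA per cell cannot be told apart.

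The Ly6 family as a whole did not follow Ly6d. Of 26 measured members out of 29 listed, 1 was 2-fold higher or more and 3 were 2-fold lower or more at 30 h in the knockdown, and 0 were higher and 5 lower in control. Over all named genes, 2.72% were higher and 2.01% lower in the knockdown, and 4.19% were higher and 2.22% lower in control. The counts of higher members are thus near the shares of all genes, and the counts of lower members are above them. The highest response in the knockdown was that of Lypd6 (1.11), which modulates nicotinic receptors and Wnt signalling, and Lypd6 was the lowest of the family in control (-1.27). Lypd6 read 3.76 in KD 30 h and 2.65 in KD 0 h, against 1.93 in WT 30 h and 3.20 in WT 0 h, all within the dim part of the arrays or close to it. Lypd6b differed by 0.13 in the knockdown and -1.24 in control, and Ly6g5c by 0.30 and -1.02. Ly6e, the family member with a broad interferon-responsive expression, differed by 0.11 in the knockdown and 0.88 in control. The family median was 0.04 in the knockdown and -0.12 in control.

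Afp encodes alpha-fetoprotein, the main serum protein of the fetal liver and a relative of albumin. It read 2.08 in KD 30 h and 1.72 in KD 0 h, against 3.07 in WT 30 h and 2.11 in WT 0 h. WT 30 h was the highest array, and the other 3 lay within 0.39 of one another. The difference between 30 h and 0 h was 0.36 in the knockdown and 0.96 in control, and knockdown minus control was -0.39 at 0 h and -0.99 at 30 h (1.99-fold lower). The control response and the genotype difference at 30 h both fell just short of 2-fold. After quantile normalization they were 1.08 and -1.12, past it, and with a floor under dim values they were 0.40 and -0.34. All Afp values lay at or below percentile 36.0 of their arrays.

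The bases before the annotated start of Afp are shown because Afp had the widest range over the groups of the 7 members other than Ly6d. RefSeq windows were found for 5 of the 10 listed genes. In each sequence printed here, from the RefSeq table of build GRCm38.p6, capitals mark a match on either strand to 1 of 7 letter patterns: TATAAA for the TATA box, CCAAT for the box of that name, GGGCGG for the GC box, TGANTCA for AP-1, TTCNNNGAA for STAT factors, GGAATG for TEAD factors and GTTAAT for a half-site of HNF1. Of 32851 windows of 250 bases, 12.4% held the TATA box pattern, 33.8% the CCAAT box, 32.7% the GC box, 6.75% the AP-1, 7.02% the STAT, 12.6% the TEAD and 6.43% the HNF1 half-site pattern. The Afp window, chr5:90490464-90490713 on the + strand, held a TATA box 7 to 2 bases before the start, a reverse CCAAT box 98 to 94 bases before it and an HNF1 half-site 105 to 100 bases before it.
Afp: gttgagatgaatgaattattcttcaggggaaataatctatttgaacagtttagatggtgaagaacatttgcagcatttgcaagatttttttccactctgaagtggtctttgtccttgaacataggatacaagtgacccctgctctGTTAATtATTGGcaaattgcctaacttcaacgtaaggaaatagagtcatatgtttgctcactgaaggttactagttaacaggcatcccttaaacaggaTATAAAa
A match is a run of letters and does not show binding.

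Dlk1 encodes a transmembrane protein related to Notch ligands that marks hepatoblasts. It read 2.70 in KD 30 h and 3.0 in KD 0 h, against 2.56 in WT 30 h and 3.11 in WT 0 h. It was lower at 30 h than at 0 h by 0.30 in the knockdown and 0.55 in control, each under 2-fold. Knockdown minus control was -0.11 at 0 h and 0.14 at 30 h.

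Other fetal and imprinted liver genes did not move as a block. Of 15 measured out of 19, 1 was at least 2-fold higher in the knockdown at 30 h (Plagl1, a zinc finger regulator of the imprinted network, 1.07, against 0.17 in control). In control, 1 was at least 2-fold lower (Mest, -1.58, against -0.77 in the knockdown). The list median was 0.07 in the knockdown and 0.01 in control. Igf2, the fetal growth factor that shares a locus with H19, read 5.76 in KD 30 h and 5.24 in KD 0 h, against 4.95 in WT 30 h and 5.21 in WT 0 h. KD 30 h was the highest array for Igf2, and knockdown minus control was 0.81 at 30 h and 0.03 at 0 h. Gpc3, an oncofetal proteoglycan, differed between 30 h and 0 h by 0.07 in the knockdown and -0.36 in control. Hmga2, a fetal chromatin protein, differed by 0.56 and -0.61.

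Knockdown minus control at 30 h was above 0 for 11 of these 15 fetal genes, with a median of 0.45 and 0 genes past 2-fold, where 2.07% of all named genes were higher and 1.86% lower. The median of all named genes in that comparison was 0.00, and that of the 9752 genes below median brightness was 0.11. The fetal list was itself dim, with a median level of 3.07 in KD 30 h and 2.88 in WT 30 h, against 3.83 for the median of all gene means. The share of all or of dim genes above 0 was not counted. Among the members, Afp (-0.99) lay below 0 in this comparison and Dlk1 (0.14) above.

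Regulators of Afp and H19 were measured for 9 of 11 genes. Zhx2, a homeodomain repressor of Afp, H19 and Gpc3 in postnatal mouse liver, read 5.54 in KD 30 h and 4.91 in KD 0 h, against 5.52 in WT 30 h and 5.20 in WT 0 h. It was higher at 30 h than at 0 h by 0.63 in the knockdown and 0.32 in control, each under 2-fold. Cebpa, a hepatocyte differentiation factor, was the 1 gene of this list past 2-fold, lower at 30 h in both genotypes (-1.39 in the knockdown, -1.05 in control). Foxa2, a pioneer factor, differed by -0.88 and -0.13, and the insulator protein gene Ctcf by -0.43 and 0.03. Zbtb20, another Afp repressor, had no named probe set.

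Sox9, the transcription factor of bile duct and progenitor cells, read 4.85 in KD 30 h and 4.56 in KD 0 h, against 4.54 in WT 30 h and 4.14 in WT 0 h. It was higher at 30 h by 0.29 in the knockdown and 0.40 in control, and higher in the knockdown by 0.42 at 0 h and 0.31 at 30 h. Each of these 4 pairwise differences was under 1.5-fold.

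Krt19, a type I keratin of bile ducts, read 2.72 in KD 30 h and 2.45 in KD 0 h, against 2.57 in WT 30 h and 2.73 in WT 0 h, a range of 0.28 over the 4 arrays and the narrowest of the 8 genes. Krt7, a type II keratin of bile ducts, read 4.33 in KD 30 h and 3.99 in KD 0 h, against 4.61 in WT 30 h and 4.52 in WT 0 h. Knockdown minus control for Krt7 was -0.53 at 0 h and -0.28 at 30 h, each under 2-fold. Epcam, an epithelial adhesion molecule, read 3.36 in KD 30 h and 3.06 in KD 0 h, against 3.43 in WT 30 h and 3.61 in WT 0 h. KD 0 h was the lowest array for Krt19, Krt7 and Epcam, and for Epcam it lay 0.55 under WT 0 h. Cd24a, a mucin-like lipid-anchored protein of progenitor cells that blood cells also carry, read 2.18 in KD 30 h and 2.43 in KD 0 h, against 2.59 in WT 30 h and 2.38 in WT 0 h. Its responses were -0.25 in the knockdown and 0.21 in control, and 0.08 and -0.08 with a floor under dim values. That floor, at percentile 25, replaced Cd24a on all arrays but WT 30 h, where it lay at percentile 25.4. The floored values thus mostly reflect the floors.

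At 0 h, 1.45% of all named genes were higher and 1.25% lower by 2-fold or more in the knockdown than in control, and 0 of the 8 members were in either class. Members above 0 numbered 3 of 8 and members below 0 numbered 5 of 8, with a median of -0.20. At 30 h, 2.07% of all named genes were higher and 1.86% lower by that size. None of the 8 members was past 2-fold, 3 were above 0 and 5 below, with a median of -0.11, and after quantile normalization 1 was above 0 and 7 below. For the knockdown response minus the control response, 6.0% of all named genes were past 2-fold above 0 and 5.82% past it below, and 0 of 8 members were, with a median of 0.07. Over the 7 members other than Ly6d, the median size of the 4 pairwise differences was 0.30 and the largest was 0.99, in Afp. Of these 7, 5 had a mean below the median of all gene means (3.83), where the central 95% of genes ran from -0.84 to 1.02 in the knockdown response and from -1.02 to 0.97 in the control response.

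Other bile duct genes were measured for 17 of 19. Of these 17, 1 was at least 2-fold higher at 30 h in the knockdown and 0 lower, and 0 were past 2-fold in control. The 1 gene was Muc1, an apical mucin, which read 4.64 in KD 30 h and 3.38 in KD 0 h, against 3.82 in WT 30 h and 3.30 in WT 0 h. Krt23, a type I keratin, differed by -0.91 in the knockdown and -0.74 in control, and Prom1, which encodes CD133, by -0.67 and 0.29. The list median was 0.07 in the knockdown and 0.25 in control.

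Keratins 8 and 18, the pair that builds intermediate filaments in hepatocytes and bile duct cells alike, were more than 3-fold higher at 30 h in both genotypes. Krt8 read 9.85 in KD 30 h and 8.12 in KD 0 h, against 9.89 in WT 30 h and 8.09 in WT 0 h. Krt18 read 9.49 in KD 30 h and 7.77 in KD 0 h, against 9.68 in WT 30 h and 7.97 in WT 0 h. Both 30 h arrays were above both 0 h arrays for each gene, with responses of 1.73 in the knockdown and 1.80 in control for Krt8 and of 1.72 and 1.71 for Krt18. The genotypes differed by at most 0.20 in size at either time. Of the other 3 keratins of this list, Krt20 was the 1 past 2-fold at 30 h, lower in control (-1.06, against -0.31 in the knockdown).

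The 250 bases before the start are shown for Krt7, which stayed within 2-fold, and for Krt8 and Krt18, which did not, all on chromosome 15. The windows are chr15:101412153-101412402 on the + strand for Krt7, chr15:102004343-102004592 on the - strand for Krt8 and chr15:102027966-102028215 on the + strand for Krt18.
Krt7: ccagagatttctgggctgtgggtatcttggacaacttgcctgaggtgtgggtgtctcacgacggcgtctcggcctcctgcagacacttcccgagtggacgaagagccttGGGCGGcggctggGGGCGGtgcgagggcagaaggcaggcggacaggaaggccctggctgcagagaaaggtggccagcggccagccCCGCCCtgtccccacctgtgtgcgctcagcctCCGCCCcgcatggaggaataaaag
Krt8: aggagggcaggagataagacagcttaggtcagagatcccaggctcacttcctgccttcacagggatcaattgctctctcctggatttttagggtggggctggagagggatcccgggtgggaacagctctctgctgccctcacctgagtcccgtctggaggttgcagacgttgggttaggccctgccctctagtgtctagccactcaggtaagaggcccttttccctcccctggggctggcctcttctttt
Krt18: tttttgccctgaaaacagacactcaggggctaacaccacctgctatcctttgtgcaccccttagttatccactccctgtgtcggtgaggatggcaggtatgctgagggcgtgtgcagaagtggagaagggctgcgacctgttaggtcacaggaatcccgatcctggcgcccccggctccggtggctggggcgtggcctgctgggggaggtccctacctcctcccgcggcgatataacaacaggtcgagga
Krt7 held 4 GC boxes and none of the 6 other patterns, and Krt8 and Krt18 held none of the 7.

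Tnfrsf12a encodes Fn14, the receptor of the cytokine TWEAK, which drives the growth of progenitor cells. It read 7.37 in KD 30 h and 4.82 in KD 0 h, against 7.28 in WT 30 h and 4.40 in WT 0 h. Both 30 h arrays were above both 0 h arrays, by 2.55 in the knockdown and 2.88 in control. Knockdown minus control was 0.42 at 0 h and 0.09 at 30 h. It was the 1 gene past 2-fold among 7 measured progenitor niche genes out of 8, in which Lgr4, a receptor for R-spondins, differed by -0.68 in the knockdown and -0.13 in control and the fibroblast marker Thy1 by -0.75 and 0.00. The ligand gene Tnfsf12 had no named probe set. The Tnfrsf12a window, chr17:23677450-23677699 on the - strand, is shown since this gene and Ly6d were both high at 30 h in each genotype. It held 5 GC boxes, of which a pair are adjacent, and none of the 6 other patterns.
Tnfrsf12a: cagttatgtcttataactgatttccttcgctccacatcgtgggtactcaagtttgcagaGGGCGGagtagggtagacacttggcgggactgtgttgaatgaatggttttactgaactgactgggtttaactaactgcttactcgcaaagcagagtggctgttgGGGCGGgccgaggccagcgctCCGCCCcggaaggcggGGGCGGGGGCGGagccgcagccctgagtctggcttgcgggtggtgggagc
Ly6d had no window in the table, so the pair could not be compared.

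Notch signalling directs hepatoblasts to the bile duct fate. Of 15 Notch and biliary fate genes, all measured, 0 were higher and 1 lower by 2-fold or more at 30 h in the knockdown, and 1 was higher and 0 lower in control. The ligand Dll4 read 1.98 in KD 30 h and 3.86 in KD 0 h, against 2.06 in WT 30 h and 2.79 in WT 0 h, and KD 0 h stood above the other 3 arrays. The ligand Dll1 read 3.37 in KD 30 h and 3.39 in KD 0 h, against 3.16 in WT 30 h and 2.07 in WT 0 h, and WT 0 h stood below the other 3. At 0 h these were the 2 genes of the list at least 2-fold higher in the knockdown (1.07 for Dll4 and 1.32 for Dll1), where 1.45% of all named genes were. Both genes are dim. Dll1 lay at percentile 10.1 of the WT 0 h array, and Dll4 at 8.38 of KD 30 h and 12.7 of WT 30 h. The receptor Notch2 differed between 30 h and 0 h by 0.98 in the knockdown and -0.03 in control.

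Osteopontin, the product of Spp1, acts through integrins and CD44, and its 11 listed receptor genes were all measured. At 30 h, 1 was at least 2-fold higher in the knockdown, Itgb3, an integrin beta chain (1.11, against -0.18 in control). In control, 1 was higher, Cd44 (1.29, against -0.02 in the knockdown). Cd44 read 3.64 in KD 30 h and 3.66 in KD 0 h, against 3.80 in WT 30 h and 2.51 in WT 0 h, so WT 0 h stood apart from the other 3 arrays. That WT 0 h value was dim, at percentile 21.0 of its array. The integrin alpha chain gene Itga5 differed by -0.46 in the knockdown and 0.66 in control.

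Markers of other cells that could carry these genes are given beside them. Macrophages make osteopontin and lie near bile ducts, and of 16 macrophage markers 1 was at least 2-fold higher at 30 h in the knockdown and 3 in control, with 0 lower in either. The scavenger receptor Marco read 5.63 in KD 30 h and 4.04 in KD 0 h, against 6.23 in WT 30 h and 3.61 in WT 0 h. The others past 2-fold in control were Cd5l (1.45, against 0.81 in the knockdown) and Vsig4 (1.12, against -0.36). The macrophage list had 8 genes above 0 and 8 below in the knockdown response (median 0.03), and 10 above and 5 below in control (median 0.22). The summed signal of the macrophage list was 610 in KD 30 h and 619 in KD 0 h, against 718 in WT 30 h and 475 in WT 0 h. Mesothelial cells carry Krt7 and Krt19, and 0 of 7 measured mesothelial markers out of 8 were past 2-fold at 30 h. In each genotype 3 were above 0 and 4 below, with medians of -0.01 in the knockdown and -0.09 in control. Gpm6a was the highest (0.87 in the knockdown, 0.59 in control), and Lrrn4 was the lowest in control (-0.74, against -0.01 in the knockdown). Cd24a is found on erythroid cells and neutrophils. None of 9 neutrophil markers was past 2-fold at 30 h. Of 5 measured erythroid markers out of 6, Alas2 differed by -1.17 in the knockdown and -1.10 in control, Epb42 differed by 0.18 and -1.34, and Tfrc by 1.40 and 0.14. The part of any of these cells in the levels of the members was not tested.

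**Figure D4:**
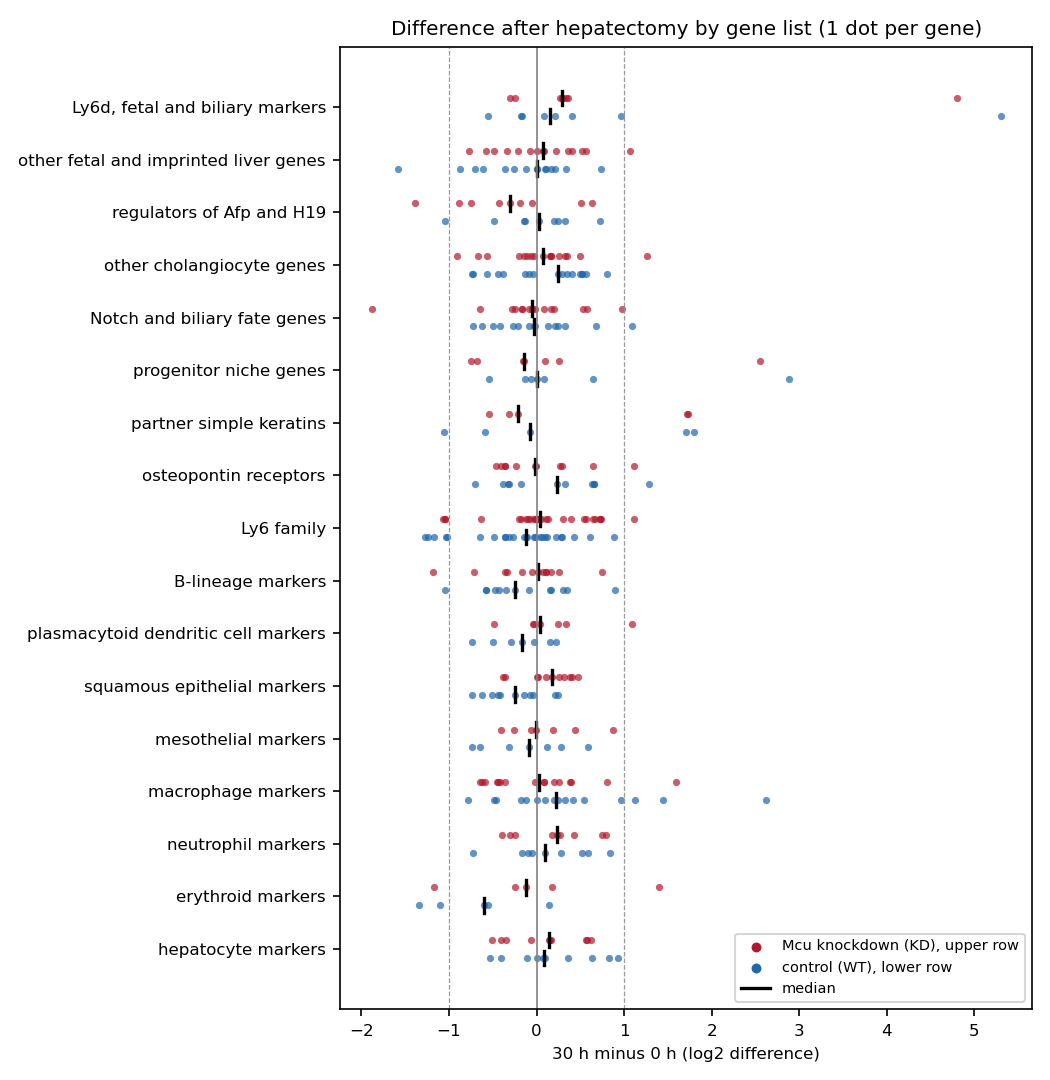
Log2 difference between 30 h and 0 h (horizontal axis) of each measured gene, 1 dot per gene, in 17 gene lists, with knockdown in the upper red row and control in the lower blue row of each list, black bars at the list medians and dashed lines at 2-fold. Ly6d, at 4.80 and 5.30, and Tnfrsf12a, at 2.55 and 2.88, stand right of the dots of their own lists.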

How the data were processed

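Liver RNA of 4 groups was measured on 1 whole-transcript array each. The deposited log2 values are one summary for each probe set, which the authors computed by RMA with Affymetrix Expression Console (named in the submitters' processing notes). RMA corrects background, equalises arrays and summarises probes, so a shift common to the whole array is removed. The version of either tool and the genome build were not given in the sources used here. Of 22206 probe sets, 19572 carried 1 gene symbol and 2634 carried none here and were not used. Genes with several probe sets (55 of 19505) took the brightest. All 19505 matched a gene ID of GRCm38.p6, used for names and promoter windows.

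Differences between single arrays were computed in Python 3.11.15 with pandas 2.3.3. No test was possible with 1 array per group, and precision is limited by the 4 arrays. A gene was called past 2-fold at a log2 difference of 1 or more in size. The members and the 16 context lists (183 of 200 genes measured) were chosen with earlier results of these data known, and the 7 motifs after the levels were seen. The rule for naming genes took all members, Mcu, a fixed set of 8 regulators and partners and the 3 genes with the largest difference in each list. It also took the 5 nearest to any member past 2-fold, without predicted genes, small RNAs and receptor segments. Not every gene under this rule has its values given above. Msln, Trp63, Ccr9 and the single neutrophil and hepatocyte markers are left out. Cd79a and Ly6e, outside this rule, were chosen after their values were seen, and Tnfsf12 is named for being unmeasured. Alternatives were median centring, quantile and cyclic loess normalization (limma 3.58.1), the mean of probe sets, a floor at percentile 25, 1.5-fold and 3-fold thresholds, and other candidate genes and distances. The counting and distance steps were tested on simulated data. 1 item in the sample labels is not reported here.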

Additional observations from a re-analysis of the deposited data

Results flagged for a closer look

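Values were looked at again where the response of a gene had opposite signs in the knockdown and in control, or where knockdown minus control had opposite signs at 0 h and 30 h. None of these differences was tested, since each rests on 4 arrays. Each value is the knockdown response minus the control response on the log2 scale. Among the members, the value was -0.50 for Ly6d, 0.25 for Dlk1, 0.43 for Krt19, 0.48 for Epcam and -0.46 for Cd24a, all under 2-fold. Members were flagged at any size, and the share of all named genes with such signs was not counted, so these flags do not set the members apart. For Ly6d and Dlk1 the genotype difference turned and the response did not. For Epcam the response turned and the genotype difference did not. For Krt19 and Cd24a both turned.

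Other named genes are given where the value was at least 1 in size. Among fetal and Notch genes it was 1.17 for Hmga2, -1.15 for Dll4, -1.11 for Dll1 and 1.01 for Notch2. Among osteopontin receptors it was 1.29 for Itgb3, -1.31 for Cd44 and -1.12 for Itga5. In the Ly6 family it was 2.38 for Lypd6, 1.32 for Ly6g5c and 1.37 for Lypd6b. Among markers of other cells it was 1.08 for Cox6a2, 1.00 for Krt10, 1.03 for Krt15, -1.03 for Marco, -1.48 for Vsig4, 1.26 for Tfrc and 1.52 for Epb42. Of the genes nearest to Ly6d in pattern it was -2.58 for Mcm6 and 1.10 for Mt1. Of all named genes, 11.8% had a value of at least 1 in size in either direction, whatever the signs of the responses.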

How the results depend on the processing

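The Ly6d differences kept their sign and their side of 2-fold under median centring, quantile and cyclic loess normalization, the mean of probe sets and the floor, except that knockdown minus control at 30 h was 0.00 after cyclic loess normalization. The Ly6d response ran from 4.75 to 4.87 in the knockdown and from 5.16 to 5.32 in control. Afp alone moved the counts of members past 2-fold under these normalizations and at 1.5-fold. Members at least 2-fold higher at 30 h in control numbered 2 in place of 1 after quantile or cyclic loess normalization or with a 1.5-fold threshold, since Afp had 1.08 and 1.09 in these normalizations. Members at least 2-fold lower in the knockdown at 30 h numbered 1 in place of 0 after median centring (Afp -1.08), quantile or cyclic loess normalization (-1.12 in both) or with the 1.5-fold threshold, and so did the knockdown response minus the control response at 1.5-fold. With the floor, Afp had -0.34 there, the median of all named genes shifted to 0.12, and Cd24a changed sign in all 5 differences (0.08 for the knockdown response, -0.08 for control, 0.16 for their difference, -0.02 for knockdown minus control at 0 h and 0.14 at 30 h). The floor replaced both genes on KD 30 h, KD 0 h and WT 0 h, and Cd24a lay at percentile 25.4 of WT 30 h. The floored Cd24a values thus mostly reflect the floors of the arrays, and its change of sign says little about Cd24a. The counts of 3 members above 0 and 5 below for knockdown minus control at 30 h became 1 and 7 after quantile normalization, where Dlk1 had -0.03 and Krt19 -0.02, 1 and 5 after cyclic loess, and 4 and 4 with the floor. At 0 h they became 2 and 6 with the floor. A 3-fold threshold left the member counts as they were. At 1.5-fold, 2445 named genes were higher and 2151 lower at 30 h in control, in place of 818 and 433, and at 3-fold 207 and 29. At 1.5-fold, 2028 were higher and 1890 lower in the knockdown, in place of 531 and 392, and at 3-fold 113 and 54. Of the 5 genes nearest to Ly6d, 4 were shared when the 4 values were centred on their mean and 5 when all named genes were candidates. The medians of the 16 context lists moved by less than 1.5-fold under the 5 alternatives run. Among genes at or above median brightness, 0.636% were lower in the knockdown at 0 h (1.25% of all), 1.12% higher in it at 30 h (2.07% of all) and 3.22% past 2-fold above 0 in the difference of responses (6.0% of all). No paired analysis was possible because each group is 1 array with no replicate number.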
